A study of Capra hircus with 6 samples.

Results

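The genes described here are 39 immediate early and activity-induced genes, which cells switch on rapidly after a stimulus without first having to make new protein, together with a few slower genes of the same response. They were taken by gene symbol from the deposited table of follicular phase and anestrus read counts. All 39 were found among its 28907 rows, and 38 passed the filter on low counts, FOSL1 being the exception. The samples are pools of RNA from the medio-basal hypothalamus of adult Alpine goats, a block of tissue at the base of the brain that holds the arcuate nucleus and the median eminence. The follicular group stands for 5 cycling goats sampled in January while in the follicular phase, and the anestrus group for 8 goats in mid-May, when cycles have stopped. No treatment or allele is named for either group. Each group was sequenced as 2 libraries, and each library is a random mix of RNA in equal amounts. How many goats entered a mix, and whether 1 goat entered both mixes of its group, is not given in the sources used here, so the p-values measure the spread between mixes, which may be partly technical. Season and ovarian state differ together between the groups and cannot be told apart. The 5 goats of the January luteal phase were not analysed here.

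Immediate early genes fall into several kinds. Calcium entry and growth factor or cAMP signals activate kinases that act on factors already bound at their promoters, chiefly CREB and the serum response factor SRF with its partners. The first products are transcription factors (the FOS and JUN proteins that pair as AP-1, the EGR zinc finger proteins, the NR4A nuclear receptors and NPAS4), and others act at synapses (ARC, HOMER1, NPTX2, BDNF) or end the signal (the DUSP phosphatases, ZFP36, SIK1). In the hypothalamus FOS protein and mRNA are widely used to mark neurons that were recently active. Most of these genes are not specific to neurons, since endothelial, glial and connective tissue cells also induce FOS, EGR1, KLF2, KLF4, CYR61 and CTGF. In a dissected block, fewer cells of a type and less RNA per cell cannot be told apart.

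The follicular libraries held 25292678 (pool 1) and 17090623 (pool 2) counts and the anestrus libraries 14553821 (pool 1) and 17910056 (pool 2). Paired values below always name pool 1 first. Levels are given as CPM, counts per 1000000 of the TMM-scaled library total, and are not divided by transcript length, so they are compared between pools and not between genes. All 12 marker genes fixed for the medio-basal hypothalamus, among them POMC, KISS1 and GHRH, passed the count filter. Of these 12, 10 were higher in follicular pool 1 than in pool 2, and 9 were higher in anestrus pool 1 than in pool 2, so the pools of a group were not equal in the markers of the dissected region. The 3 blood markers in the table (ALAS2, HBM and SLC4A1) had 0 to 3 counts in any pool. The globin genes HBB and HBA1, also listed, matched no symbol in the table and could not be checked.

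In the quasi-likelihood test of edgeR, no member passed an adjusted p of 0.05 (0 of 38), where 0.203% of all 16756 genes tested did. At an unadjusted p under 0.05 there were 8 members, or 21.1%, all higher in the follicular phase, where 4.26% of all genes were higher at that p. They were NPAS4, NR4A3, NR4A1, SIK1, EGR1, EGR2, IER2 and JUNB. DESeq2's Wald test called 1 member, NPAS4, beside 0.841% of all genes, and limma-voom called 0, beside 0.179%. By sign alone, 30 of the 38 had a positive log2 fold change (follicular minus anestrus), a share of 78.9% against 49.9% of all genes, and their median was 0.29 against -0.001 over all genes. Both follicular pools lay above both anestrus pools for 16 members (42.1%, beside 17.6% of all genes), and below them for 4 (10.5%, beside 20.7%), namely KLF4, MYC, CTGF and GADD45B. Some of these margins were narrow. The nearest follicular and anestrus pools were at 1.69 and 1.67 CPM for DUSP5 and at 9.65 and 9.53 CPM for JUNB. They were at 15.9 and 15.7 CPM for BDNF and at 11.3 and 11.5 CPM for GADD45B.

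These counts moved with single pools. Without follicular pool 1, the members with a positive log2 fold change were 25 of 38 (beside 48.1% of all genes), their median was 0.18 and 0 passed, beside 0.0233% of all genes. The calls were 2 without follicular pool 2 (NPAS4 and SIK1, beside 0.553% of all genes), 5 without anestrus pool 1 (NPAS4, SIK1, NR4A1, JUNB and ARC, beside 4.72%) and 4 without anestrus pool 2 (NPAS4, SIK1, EGR1 and FOS, beside 3.39%). A group with a pool left out has no spread of its own, and its lone pool is taken to vary like the other group. Some lists of cell type markers also leaned to one side between the groups. Of the 15 neuron markers tested all had a positive log2 fold change, with a median of 0.38, and so did all 9 astrocyte markers (0.56), all 11 oligodendrocyte markers (0.77) and all 11 microglia markers (0.24). Among these markers only GFAP, of the astrocyte list, passed, as higher in the follicular phase (log2 fold change 1.01, adjusted p = 0.0316, edgeR). The 12 medio-basal hypothalamus markers divided, with 5 positive, 7 negative and a median of -0.22. Summed neuron markers were at 6457 and 7151 CPM in the follicular pools against 5945 and 5314 CPM in the anestrus pools. Of the 9 tested markers of the anterior pituitary and pars tuberalis, glandular tissue that borders the median eminence, 8 were negative, with a median of -0.97. Their summed level was 5520 and 4509 CPM in the follicular pools against 14720 and 11500 CPM in the anestrus pools, and TSHB (-7.45) and CGA (-1.30) passed as lower in the follicular phase. LHB, the marker with the positive value, was at 118 CPM in follicular pool 1 and 27.9 CPM in follicular pool 2, against 31.9 and 20.8 CPM in anestrus. The members' median of 0.29 was below those of the neuron, astrocyte and oligodendrocyte markers, and the part of cell composition and of pituitary tissue in it was not tested.

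**Figure D1:**
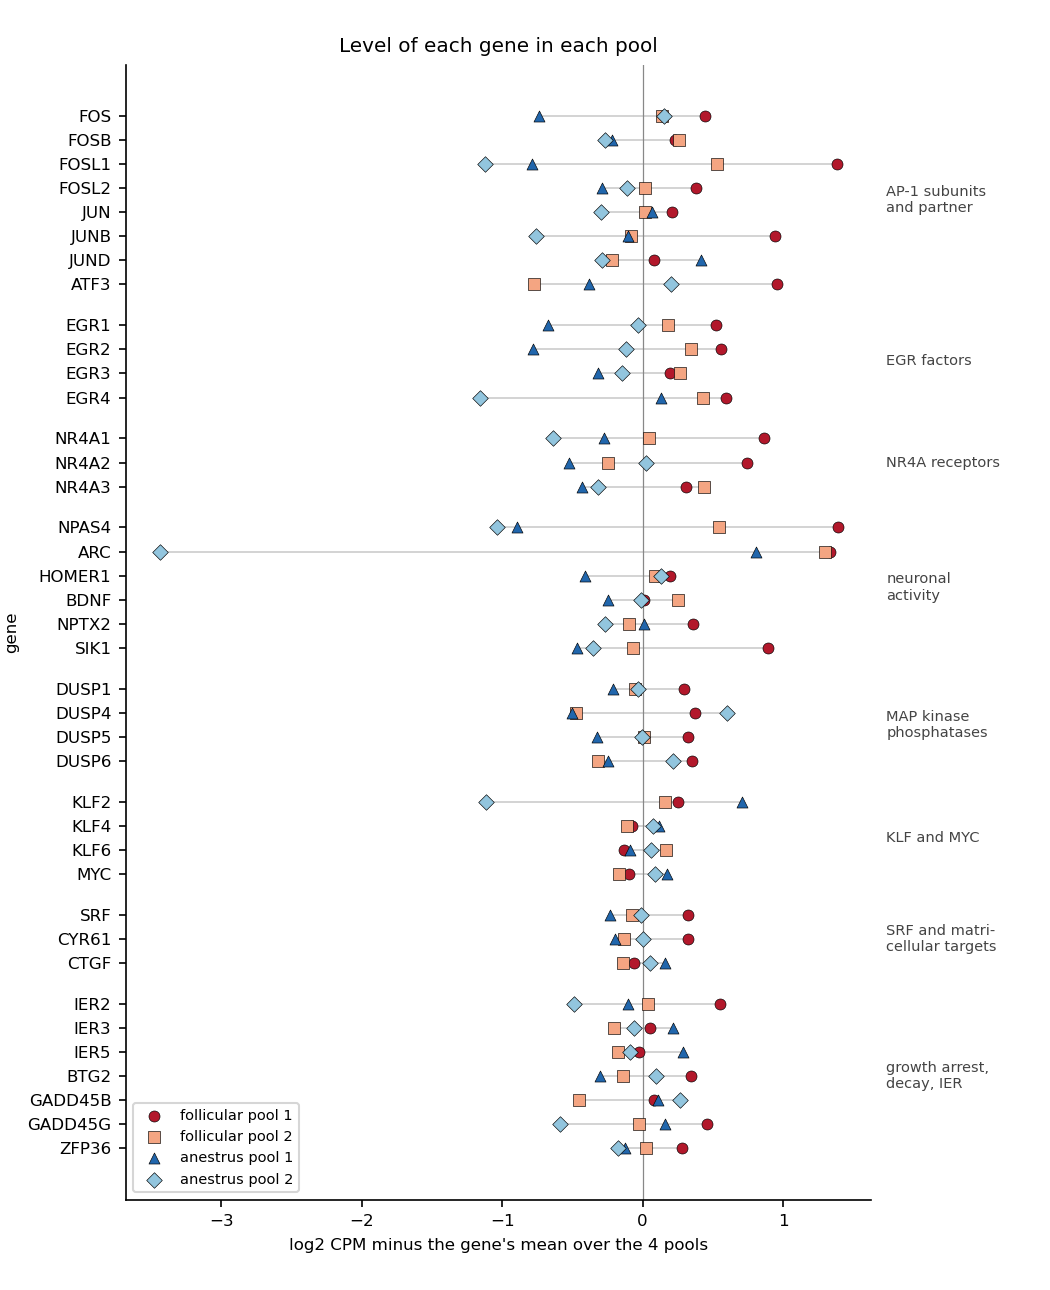
Level of each of the 39 genes in each pool, as log2 CPM minus the gene's own mean over the 4 pools (horizontal axis, log scale), with 1 symbol per pool and genes grouped by role. Follicular pool 1 (dark red circles) is the highest pool for 24 of the 38 tested genes, and ARC stands out for its low value in anestrus pool 2, which rests on 2 counts.

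NPAS4, a transcription factor of neurons that is induced by calcium entry and hardly at all by growth factors, had the smallest p-value of the 38 members in edgeR. Its level was 11.6 and 6.45 CPM in the follicular pools against 2.38 and 2.17 CPM in the anestrus pools, from 295, 111, 34 and 39 counts. Both follicular pools lay well above both anestrus pools, and the anestrus pools were close to each other while the follicular pools lay 1.8-fold apart. The log2 fold change of NPAS4 was 1.99 ± 0.40 (SE), which is 3.98-fold, with a 95% interval of 1.12 to 2.87 and an adjusted p of 0.111 (edgeR). By unadjusted p it ranked 62 of 16756 genes. Its adjusted p was 0.00439 in DESeq2's Wald test and 0.000182 in edgeR with no count filter, a setting that called 1.38% of all genes. It was 0.00607 with follicular pool 2 left out, 0.000374 with anestrus pool 1 left out and 0.00128 with anestrus pool 2 left out. Without follicular pool 1 the log2 fold change was 1.52 (edgeR), and neither NPAS4 nor any other member was called. Across the 13 alternatives the log2 fold change stayed between 1.52 and 2.35, and the call was made in 7 of them.

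The other genes grouped here as neuronal activity genes (ARC, SIK1, HOMER1, BDNF and NPTX2) showed smaller or less even differences. ARC, which encodes a capsid-like protein that regulates AMPA receptors at synapses, was at 3.03 and 2.96 CPM in the follicular pools against 2.1 and 0.111 CPM in the anestrus pools. The follicular pools were nearly equal, and the anestrus pools were 18.9-fold apart (counting interval 4.81 to 164), from 30 and 2 counts. ARC had a log2 fold change of 1.49 ± 0.88, a 95% interval of -0.55 to 3.53 and an adjusted p of 0.732 (edgeR). Set against anestrus pool 1 alone, the follicular pools gave a ratio of 1.43 with a counting interval of 0.953 to 2.2, and against anestrus pool 2 alone 27.0, with an interval of 7.34 to 226 (exact 95% intervals, which cover counting error only). ARC was called without anestrus pool 1 (adjusted p = 3.0e-05, edgeR), a fit whose only anestrus value is the one of 2 counts, where the log2 fold change was 4.68. It was 0.55 without anestrus pool 2 and 2.59 in limma-voom (adjusted p = 0.374).

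SIK1, a salt-inducible kinase that switches off CREB's coactivators, was at 69.0 and 35.5 CPM in the follicular pools and at 26.9 and 29.2 CPM in the anestrus pools. The groups did not overlap, but follicular pool 2 was much nearer to the anestrus pools than to follicular pool 1. Its log2 fold change was 0.90 ± 0.30, with a 95% interval of 0.23 to 1.57 and an adjusted p of 0.408 (edgeR). SIK1 was called without follicular pool 2 (log2 fold change 1.30), anestrus pool 1 (0.84) or anestrus pool 2 (1.01), and with no count filter, and without follicular pool 1 it was 0.35. HOMER1, BDNF and NPTX2 differed less between the groups than SIK1. HOMER1, a scaffold of the postsynaptic density, was at 86.0 and 79.6 CPM against 56.4 and 82.1 CPM, so that only anestrus pool 1 stood lower. BDNF, the neurotrophin that signals through NTRK2, was at 15.9 and 18.8 CPM against 13.3 and 15.7 CPM. NPTX2, a secreted pentraxin that clusters AMPA receptors, was at 66.5 and 48.5 CPM against 52.1 and 43.0 CPM. The log2 fold changes of these 3 genes were 0.26 to 0.28, and their 95% intervals ran from -0.32 at the lowest to 0.83 at the highest.

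The EGR factors, zinc finger proteins that bind GC-rich promoter sites, had both follicular pools above both anestrus pools for all 4 members. That order held for 17.6% of all genes. EGR1 was at 166 and 131 CPM in the follicular pools against 72.5 and 113 CPM in the anestrus pools. EGR2 was at 10.1 and 8.72 CPM against 4.0 and 6.33 CPM. In both genes anestrus pool 1 was the lowest pool, and the anestrus pools differed more between themselves than the follicular pools did. EGR1 had a log2 fold change of 0.68 ± 0.23 (95% interval 0.17 to 1.19, adjusted p = 0.410, edgeR) and EGR2 of 0.86 ± 0.34 (0.11 to 1.62, adjusted p = 0.50, edgeR). EGR1 was called without anestrus pool 2 (log2 fold change 1.08, adjusted p = 3.3e-05) and with no count filter (adjusted p = 0.0331), and stood at 0.39 without anestrus pool 1. EGR3, which acts downstream of calcineurin in neurons and lymphocytes, was even within groups, at 8.38 and 8.83 CPM against 5.89 and 6.61 CPM, a log2 fold change of 0.46 ± 0.31. EGR4 was at 2.79 and 2.50 CPM against 2.03 and 0.833 CPM, from 71, 43, 29 and 15 counts. Its lowest pool was anestrus pool 2, not pool 1, and its log2 fold change of 0.91 ± 0.52 went to 0.43 when that pool was left out and to 1.66 when anestrus pool 1 was.

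The NR4A genes encode orphan nuclear receptors that act without a known natural ligand. NR4A1 was at 27.1 and 15.4 CPM in the follicular pools against 12.3 and 9.60 CPM in the anestrus pools. NR4A3 was at 24.7 and 27.0 CPM against 14.8 and 15.9 CPM. Neither overlapped between groups, and in NR4A3 both pairs of pools were close while in NR4A1 the follicular pools were 1.76-fold apart. NR4A3 had a log2 fold change of 0.75 ± 0.23 (95% interval 0.23 to 1.27, adjusted p = 0.349, edgeR), which stayed between 0.69 and 0.85 over the 13 alternatives. NR4A1 had 0.96 ± 0.32 (0.25 to 1.67, adjusted p = 0.395), and was called without anestrus pool 1 (1.15, adjusted p = 0.0177, edgeR) while standing at 0.51 without follicular pool 1. NR4A2, which is also a lasting identity factor of dopamine neurons, was at 22.1 and 11.2 CPM against 9.18 and 13.4 CPM. Its groups overlapped, and its log2 fold change of 0.56 ± 0.36 went to -0.01 without follicular pool 1.

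Among the AP-1 genes, FOS was at 75.4 and 61.3 CPM in the follicular pools against 33.4 and 61.8 CPM in the anestrus pools. Only anestrus pool 1 was low, and anestrus pool 2 equalled follicular pool 2. The log2 fold change of FOS was 0.52 ± 0.28, with a 95% interval of -0.11 to 1.15 and an adjusted p of 0.687 (edgeR). It was 1.08 without anestrus pool 2, where it was called (adjusted p = 0.000477, edgeR), and 0.15 without anestrus pool 1, so the remaining anestrus pool set its value. FOSB, whose truncated product accumulates under repeated stimulation, was even within groups at 6.89 and 7.03 CPM against 5.05 and 4.89 CPM, and its log2 fold change of 0.49 ± 0.32 stayed between 0.47 and 0.52 over the 13 alternatives. FOSL2 was at 73.2 and 56.9 CPM against 45.8 and 52.0 CPM, with no overlap and a log2 fold change of 0.41 ± 0.19. FOSL1, which was below the count filter, had 16, 6, 2 and 2 counts in the same order. With the pools of each group merged, its follicular to anestrus ratio was 4.17, with an exact 95% counting interval of 1.41 to 16.6. That interval covers counting error only and not the spread between pools.

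The JUN proteins, the obligate partners of FOS in AP-1, divided. JUNB was at 19.7 and 9.65 CPM in the follicular pools against 9.53 and 6.05 CPM in the anestrus pools. Follicular pool 1 alone stood high, since follicular pool 2 was level with anestrus pool 1. JUNB had a log2 fold change of 0.92 ± 0.39 (95% interval 0.05 to 1.8, adjusted p = 0.555, edgeR). It was called without anestrus pool 1 (1.28, adjusted p = 0.0162, edgeR) and stood at 0.33 without follicular pool 1. JUN was at 47.1 and 41.3 CPM against 42.8 and 33.3 CPM, and its groups overlapped, with a log2 fold change of 0.22 ± 0.21. JUND, the JUN gene that many tissues express steadily, was at 87.8 and 71.2 CPM against 111 and 67.9 CPM, with a log2 fold change of -0.17 ± 0.24 that was 0.23 without anestrus pool 1. ATF3, a stress-induced partner of the JUN proteins, was at 15.4 CPM in follicular pool 1 and at 4.65 CPM in follicular pool 2, against 6.10 and 9.16 CPM in the anestrus pools. Follicular pools 1 and 2 thus held the highest and the lowest value of ATF3, and its log2 fold change of 0.40 ± 0.52 was -0.71 without follicular pool 1 and 1.01 without follicular pool 2.

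**Figure D2:**
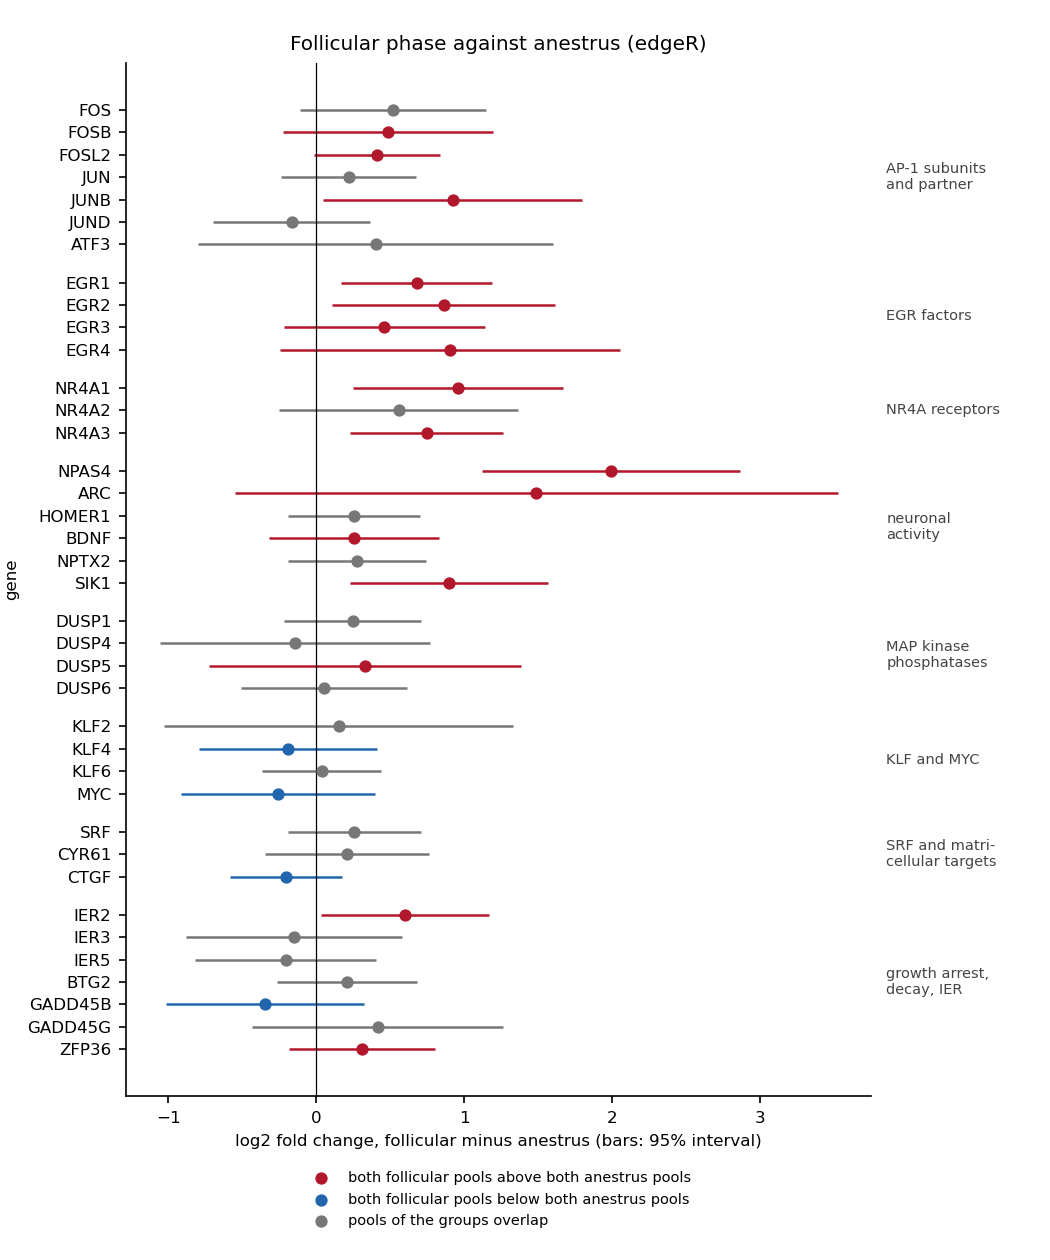
Log2 fold change of the 38 tested genes, follicular minus anestrus (horizontal axis), with 95% intervals from edgeR and genes grouped by role, and colours for whether the 2 pools of each group overlapped. All 13 EGR, NR4A and neuronal activity genes lie above 0, from 0.26 to 1.99, and the 4 genes with both follicular pools lower (KLF4, MYC, CTGF and GADD45B) lie between -0.35 and -0.19.

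The dual-specificity phosphatases end MAP kinase signalling, DUSP1 acting mainly in the nucleus on p38 and JNK, DUSP6 in the cytoplasm on ERK, and DUSP4 and DUSP5 in the nucleus. DUSP1 was at 45.5 and 35.8 CPM in the follicular pools against 32.2 and 36.4 CPM in the anestrus pools. DUSP6 was at 122 and 76.6 CPM against 80.4 and 111 CPM. DUSP4 was at 37.3 and 20.7 CPM against 20.3 and 43.7 CPM, so that the highest and the lowest value were both in anestrus. All 3 overlapped between groups, with log2 fold changes of 0.25 ± 0.21, 0.05 ± 0.25 and -0.14 ± 0.40. DUSP5, at 2.09 and 1.69 CPM against 1.33 and 1.67 CPM, did not overlap, by a narrow margin, and had 19 to 53 counts per pool. Its 95% interval of -0.72 to 1.39 held values of either sign. In all 4 DUSP genes follicular pool 1 was above pool 2 and anestrus pool 2 was above pool 1.

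Of the 3 KLF factors and MYC, 0 reached an unadjusted p under 0.05. KLF4, a Krüppel-like factor of endothelium and epithelium, was at 11.3 and 11.0 CPM in the follicular pools against 13 and 12.5 CPM in the anestrus pools. MYC, the growth-promoting factor, was at 7.75 and 7.38 CPM against 9.32 and 8.83 CPM. Both had tight pairs of pools with the follicular pair lower, and log2 fold changes of -0.19 ± 0.27 and -0.26 ± 0.30. KLF6 was at 61.8 and 75.9 CPM against 63.7 and 70.5 CPM, a log2 fold change of 0.04 ± 0.18 with a 95% interval of -0.36 to 0.44. KLF2, which endothelial cells induce under flow, was at 6.14 and 5.75 CPM against 8.41 and 2.39 CPM. Its anestrus pools were 3.52-fold apart, and its log2 fold change of 0.15 ± 0.52 went to 1.31 when anestrus pool 1 was left out and to -0.45 when anestrus pool 2 was.

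SRF, the factor that binds the serum response element of many immediate early promoters, was at 61.6 and 46.8 CPM in the follicular pools against 41.9 and 48.9 CPM in the anestrus pools. CYR61 and CTGF encode the matricellular proteins CCN1 and CCN2, which connective tissue and vessel cells make in response to growth factors and stretch. CYR61 was at 26.4 and 19.2 CPM against 18.4 and 21.2 CPM. CTGF was at 59.4 and 56.2 CPM against 69.2 and 64.3 CPM. Only CTGF had groups that did not overlap, with the follicular pools lower and a log2 fold change of -0.21 ± 0.17, beside 0.26 ± 0.20 for SRF and 0.21 ± 0.25 for CYR61. The median log2 fold change was -0.35 for meningeal fibroblast markers, with 7 of 9 negative, and 0.05 for endothelial markers, with 8 of 13 positive, and their part in the CTGF and KLF values was not tested.

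Of the genes of growth arrest, mRNA decay and the IER group, IER2, a small nuclear protein, had the smallest p-value. It was at 35.9 and 25.1 CPM in the follicular pools against 22.8 and 17.4 CPM in the anestrus pools, with no overlap. Its log2 fold change was 0.60 ± 0.26 (95% interval 0.04 to 1.17, adjusted p = 0.548, edgeR), and 0.34 to 0.84 over the 13 alternatives. Without follicular pool 1, GADD45B was farther from 0, at -0.63, than IER2, at 0.34. ZFP36, which binds AU-rich elements and speeds mRNA decay, was at 30.1 and 25.3 CPM against 22.8 and 22.0 CPM, again without overlap, with a log2 fold change of 0.31 ± 0.22. BTG2, an antiproliferative partner of the deadenylase complex, was at 90.6 and 64.8 CPM against 58.0 and 76.5 CPM, and GADD45G at 6.89 and 4.94 CPM against 5.61 and 3.33 CPM. GADD45B, a DNA damage and demethylation cofactor of the same family, went the other way, at 11.3 and 7.79 CPM against 11.5 and 12.8 CPM and a log2 fold change of -0.35 ± 0.30. IER3 and IER5 overlapped between groups, at 6.26 and 5.23 against 7.01 and 5.77 CPM for IER3, and at 13.2 and 11.9 against 16.4 and 12.7 CPM for IER5. Anestrus pool 1 was the highest pool in both, and their log2 fold changes were -0.15 ± 0.33 and -0.21 ± 0.28.

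Put together by role, the median log2 fold change was 0.77 for the 4 EGR genes, 0.75 for the 3 NR4A genes, 0.59 for the 6 neuronal activity genes and 0.41 for the 7 AP-1 genes tested. It was 0.15 for the 4 DUSP genes, 0.21 for SRF with CYR61 and CTGF, 0.21 for the 7 growth arrest, decay and IER genes, and -0.08 for the KLF genes with MYC. The median of the neuronal activity genes fell in a gap between its members. NPAS4, ARC and SIK1 were at 0.90 to 1.99, and HOMER1, BDNF and NPTX2 at 0.26 to 0.28. In every one of the 4 fits that left out 1 pool, 23 of the 38 genes were positive (60.5%, beside 26.0% of all genes). They were the 4 EGR genes, the 6 neuronal activity genes, NR4A1, NR4A3, FOS, FOSB, FOSL2, JUN, JUNB, SRF, DUSP1, DUSP5, GADD45G, IER2 and ZFP36. Differences between the roles were not tested, since members of a group are not replicates. Without follicular pool 1 the medians were 0.64 for the EGR genes, 0.51 for the NR4A genes, 0.37 for the neuronal activity genes and 0.23 for the AP-1 genes. They were -0.12 for the DUSP genes, -0.025 for SRF with CYR61 and CTGF, -0.04 for the growth arrest, decay and IER genes and -0.03 for the KLF genes with MYC.

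**Figure D3:**
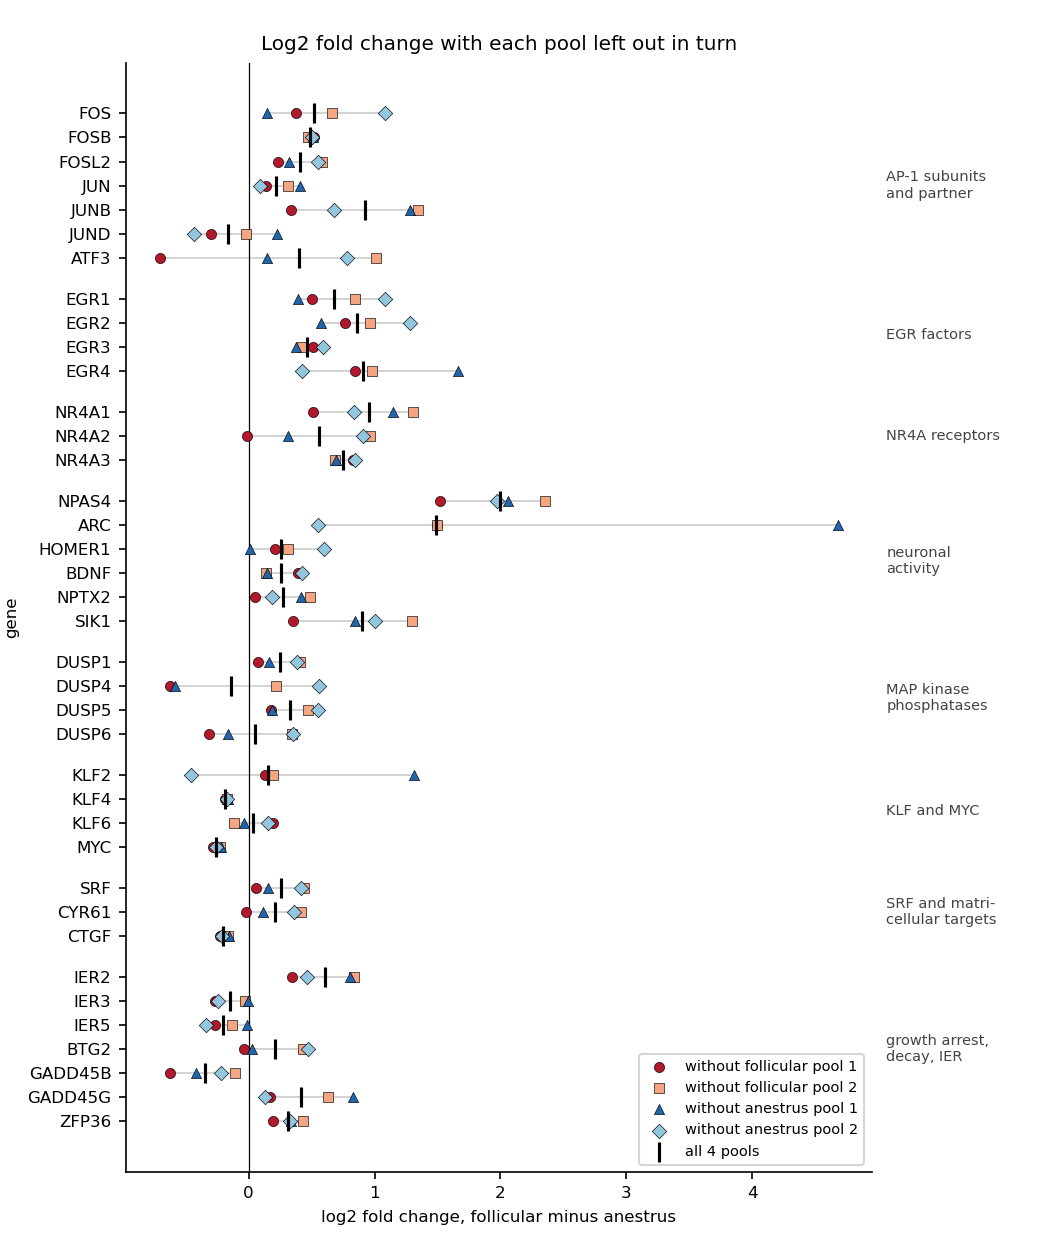
Log2 fold change of the 38 tested genes, follicular minus anestrus (horizontal axis), in edgeR fits that leave out each pool in turn, with the fit of all 4 pools as a black bar. NPAS4 stays above 1.5 in all 4 fits, FOSB and NR4A3 hardly move, and ATF3, DUSP4 and DUSP6 lie on both sides of 0.

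The pools of a group differed in these genes as well as the groups. Follicular pool 1 was above follicular pool 2 for 33 of the 38 members (86.8%, beside 50.2% of all genes), and was the highest pool of all for 24 (63.2%, beside 24.9%). The largest ratios of follicular pool 1 over 2 were 3.32 for ATF3, 2.04 for JUNB, 1.98 for NR4A2 and 1.94 for SIK1, while NR4A3, EGR3, FOSB, BDNF and KLF6 lay below 1, from 0.813 to 0.980. Of the neuron markers 3 of 15, and of the medio-basal hypothalamus markers 10 of 12, were higher in follicular pool 1 than in pool 2. Between the anestrus pools, 11 of these 15 and 9 of these 12 were higher in pool 1. The part of neuron content and of dissection in the members' pool differences was not tested. In anestrus, pool 1 was above pool 2 for 18 of the 38 members (47.4%, beside 53.8% of all genes). Pool 1 was the higher for ARC (18.9-fold), KLF2 (3.52-fold), EGR4 (2.44-fold), GADD45G (1.68-fold) and JUND (1.63-fold). Pool 2 was the higher for DUSP4 (2.15-fold), FOS (1.85-fold), EGR2 (1.58-fold), EGR1 (1.56-fold) and ATF3 (1.5-fold). The 2 anestrus pools therefore differed in both directions within this set, with FOS, EGR1 and EGR2 on one side and ARC and EGR4 on the other.

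**Figure D4:**
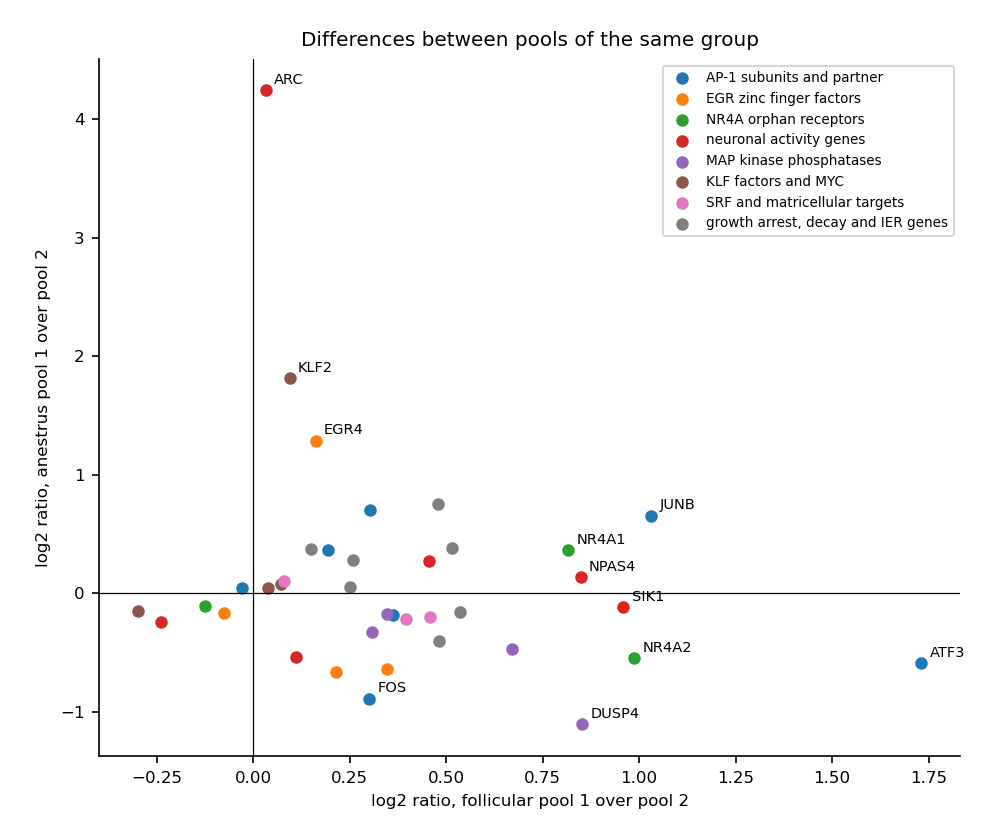
Each of the 38 tested genes by the log2 ratio of follicular pool 1 over pool 2 (horizontal axis) and of anestrus pool 1 over pool 2 (vertical axis), coloured by role. Of the 38 genes, 33 lie to the right of 0, and in the vertical direction 18 lie above and the others below, with ARC farthest out.

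The members were also set beside the neuron markers, by dividing each pool's CPM by that pool's sum of these markers. This scaling was chosen after the data were seen. Abundant markers weigh most in the sum, with MAP2 at 1457 and UCHL1 at 984 of the 6457 CPM in follicular pool 1. The sums differ between the groups by 0.27 on the log2 scale, against a median of 0.38 over the single markers. By construction, therefore, fewer genes lie higher and more lie lower. Each pool is shifted by its own sum, 6457 and 7151 CPM in the follicular pools and 5945 and 5314 CPM in the anestrus pools. The distances between pools of a group therefore change as well, and with them the overlaps. On that scale both follicular pools lay above both anestrus pools for 7 members (18.4%, beside 5.19% of all genes), namely NPAS4, ARC, EGR2, EGR4, FOSB, NR4A1 and NR4A3. They lay below them for another 7 (18.4%, beside 44.6% of all genes), namely CTGF, GADD45B, IER3, IER5, KLF4, KLF6 and MYC. The scaling tests nothing particular to neurons. NPAS4 was at 1.8 and 0.902 CPM per 1000 CPM of neuron markers in follicular pools 1 and 2, and at 0.401 and 0.407 in anestrus pools 1 and 2. NR4A3 was at 3.83 and 3.77 against 2.49 and 3.0, while EGR1, at 25.8 and 18.3 against 12.2 and 21.3, and SIK1, at 10.7 and 4.96 against 4.53 and 5.50, overlapped.

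The signalling genes that lie upstream of this response were examined as a list of 39, holding CREB and its coactivators, the SRF and MEF2 partners, calcium- and MAP kinases, and glutamate receptors and calcium channels. All 39 were tested, 0 passed in either direction, 24 had a positive and 15 a negative log2 fold change, and the median was 0.06. Both follicular pools were higher for 12 (30.8%, beside 17.6% of all genes) and lower for 8 (20.5%, beside 20.7%). The smallest p-values were those of the calcium/calmodulin kinase subunits CAMK2A and CAMK2B. CAMK2A was at 259 and 223 CPM in the follicular pools against 153 and 141 CPM in the anestrus pools, a log2 fold change of 0.71 ± 0.16 (adjusted p = 0.195, edgeR). CAMK2B was at 172 and 124 CPM against 98.5 and 77.9 CPM, a log2 fold change of 0.75 ± 0.20. CREM, named after its values were seen, is a CREB relative whose short product is itself induced by cAMP and represses. Counted per gene, which does not separate its products, CREM was at 73.0 and 40.0 CPM against 95.5 and 120 CPM. Its log2 fold change was the lowest of the list, at -0.93 ± 0.28 (adjusted p = 0.351, edgeR).

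A further list of 38 inducible genes outside the set, among them PER1, SGK1, PLK2, NFIL3 and MCL1, had 0 genes called, 18 positive and 20 negative log2 fold changes and a median of -0.06. Both follicular pools were higher for 6 of them (15.8%, beside 17.6% of all genes) and lower for 8 (21.1%, beside 20.7%), which is close to the share over all genes. PER2, a clock gene, had the smallest p, at 21.5 and 23.1 CPM in the follicular pools against 52.9 and 38.0 CPM in the anestrus pools, and a log2 fold change of -1.03 ± 0.23 (adjusted p = 0.178, edgeR). SGK1, a kinase induced by serum and glucocorticoids, was at 49.0 and 56.2 CPM against 36.7 and 37.3 CPM, a log2 fold change of 0.51 ± 0.19 (adjusted p = 0.457, edgeR). Heat shock and glucocorticoid response genes, 13 tested of 15 listed, also had 0 calls, 4 positive and 9 negative values and a median of -0.07. Among them FKBP5, a glucocorticoid-induced chaperone partner, had -0.65 ± 0.16 (adjusted p = 0.235, edgeR) and HMOX1, the stress-induced haem oxygenase, 0.77 ± 0.35 (adjusted p = 0.595).

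**Figure D5:**
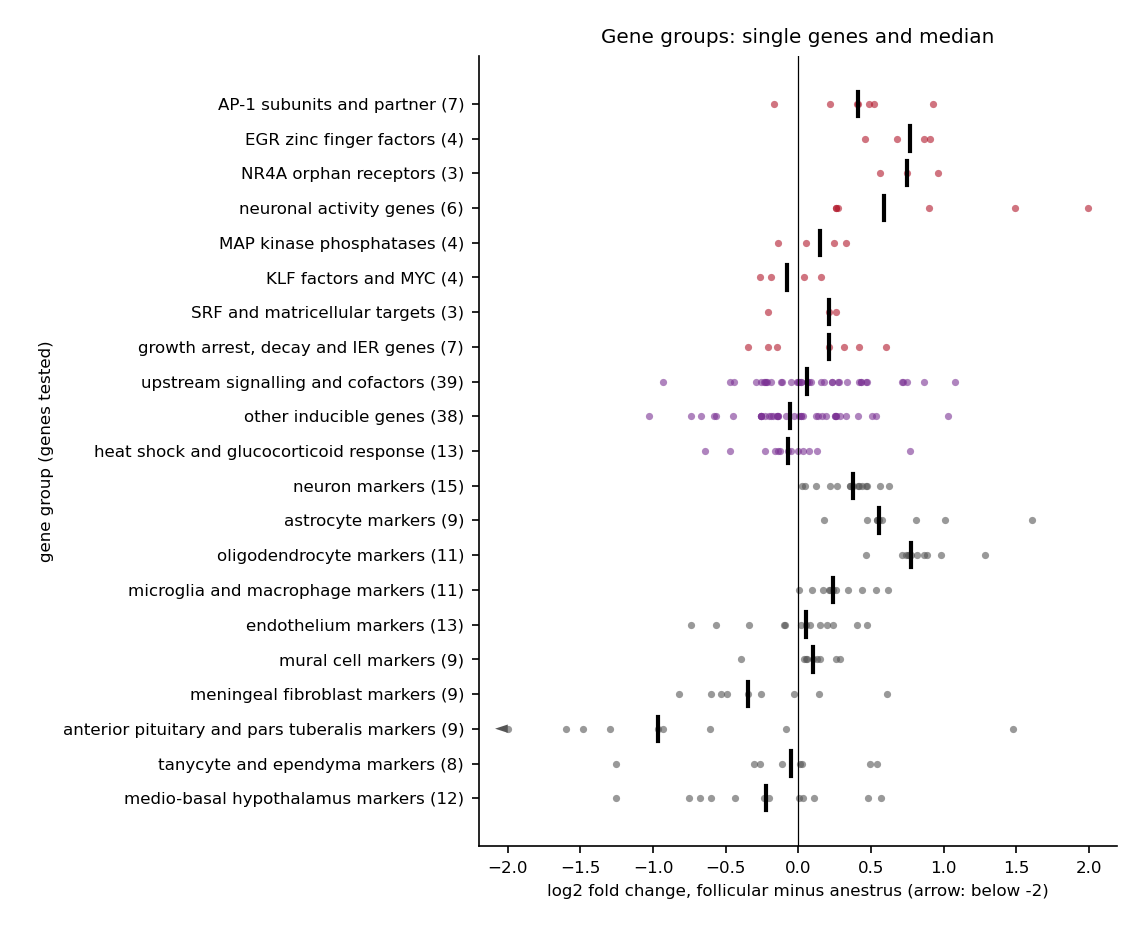
Log2 fold changes, follicular minus anestrus (horizontal axis), of single genes (points) and the median (black bar) for the 8 roles (red), the 3 pathway lists (purple) and the cell type marker lists (grey), with the number of genes tested in brackets. The EGR, NR4A and neuronal activity medians lie at 0.59 to 0.77, as high as the astrocyte and oligodendrocyte markers at 0.56 and 0.77, and the other inducible genes centre near 0. The neuronal activity points are split, at 0.90 to 1.99 and at 0.26 to 0.28, with the median between them. TSHB, at -7.45, is drawn as the arrow.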

How the data were processed

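The deposited table holds raw read counts per gene, not normalized. TriReagent extraction was followed by a stranded Truseq mRNA library kit, per the labels' protocols. Per the submitters' processing notes, the authors counted with featureCounts 2.0.0 after alignment with Bowtie2 2.3.5.1 and TopHat2 2.1.1. Build and strand setting: not given in the sources used here. In the RefSeq gene table of assembly ARS1.2, no member's span overlaps another gene.

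Counts were filtered with edgeR's filterByExpr (minimum count 10, minimum total 15), which left 16756 genes, and were TMM-scaled before the test in edgeR 4.0.16 (robust glmQLFit, glmQLFTest, 2 residual degrees of freedom) in R 4.3.3. P-values were adjusted by Benjamini-Hochberg over all genes tested. Standard errors were taken from the log2 fold change and its F statistic, and 95% intervals from the moderated degrees of freedom. DESeq2 1.42.0 and limma 3.58.1 (voom) served as alternatives, with other scalings, filters, left-out pools and replicate blocks. The fit was tested on simulated data.

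Every member is named whatever its result. Full statistics are given for NPAS4, FOS, EGR1, ARC and NR4A1 and for the 8 members with the smallest p, and the 2 genes with the smallest p are given for each pathway list. Members and lists were chosen with earlier results of these data known. Of 249 list entries, 241 matched a symbol in the table. The anestrus pools carry opposite numbers in titles and in library names, of which the latter were used. No sequence was used.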

Additional observations from a re-analysis of the deposited data

How the results depend on the processing

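The number of members called was 0 with RLE or upper quartile scaling, the filter on mean CPM, limma-voom and no robust estimation, 3 with no count filter, 1 in DESeq2 and 1 with either replicate block, and 0 to 5 with a pool left out. All genes called, 34 with all pools, were 300 with no count filter, 141 in DESeq2, 90 and 130 with the replicate block numbered by library names and by sample titles, and 4 to 810 with a pool left out. Over those fits the members with a negative log2 fold change were 8 to 13, and the median 0.175 to 0.467. Relative to summed neuron markers, 7 members were without overlap and higher in the follicular phase (16 by library totals; 5.19% of all genes) and 7 lower (4 by library totals; 44.6% of all genes). The pools' numbers are not said to pair them. Deviations of same-numbered pools correlated at 0.26 by library names, over 16756 genes. By titles the value is -0.26 by construction, since only the sign turns, so it cannot tell which pairing is right.

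Of 494 member values under the 13 alternatives, 465 kept their direction and side of the threshold, 17 newly passed and 12 changed sign, none of these past the threshold. With each pool left out in turn, the log2 fold change ran from -0.705 to 1.012 for ATF3, -0.039 to 0.468 for BTG2, -0.025 to 0.418 for CYR61, -0.626 to 0.562 for DUSP4, -0.311 to 0.350 for DUSP6, -0.432 to 0.228 for JUND, -0.455 to 1.314 for KLF2, -0.119 to 0.194 for KLF6 and -0.010 to 0.965 for NR4A2, the genes that changed sign. The cause was not tested, and fewer samples enter these fits. Depth limits DUSP5, EGR4, ARC and FOSL1 most, each with under 80 counts in every pool.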
